A study of Astyanax mexicanus with 26 samples.

Results

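Active promoter-like chromatin common to 3 morphs of the Mexican tetra, Astyanax mexicanus, was described in adult liver. The regions were chosen from deposited peak lists of 3 histone marks. H3K4me3 peaks of the 3 morphs were merged where they overlapped or touched, and a merged region was kept if every morph had an H3K4me3 peak and an H3K27ac peak there and no morph had an H3K27me3 peak. Of 148050 merged H3K4me3 regions, 16536 met the rule, or 11.2% (95% exact binomial interval 11.01 to 11.3). They made up 46.3% (45.8 to 46.8) of the 35695 regions with H3K4me3 in all morphs, which are called all-morph regions here. Peak presence chose the regions, so the presence or absence of a mark in them is no finding. Intervals cover counting error only, and neighbouring regions are not independent.

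H3K4me3 is laid down around transcription start sites by SET1 and MLL methyltransferase complexes and marks promoters that are open to transcription. H3K27ac is deposited by the acetyltransferases p300 and CBP at active promoters and enhancers. It occupies the same lysine as H3K27me3, the product of Polycomb repressive complex 2, so that a single histone tail cannot carry both. Promoters with H3K4me3 and H3K27ac and without H3K27me3 are typical of genes in use in many cell types and of genes active in the tissue. Whether the regions lay at start sites was not tested, since the gene table at hand is of another genome build, and for the same reason no region is given a gene name or a sequence.

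The morphs were fish of the Pachon cave, fish of the Tinaja cave, and Surface fish, the river-dwelling form. Livers were fixed in 1% formaldehyde for 15 min, and 200000 cells and 1 ug of antibody went into each immunoprecipitate. Pachon and Surface had 2 libraries per mark, and Tinaja had 3 for H3K4me3, 3 for H3K27ac and 2 for H3K27me3. Sex, age beyond adult, and the number of fish behind a library are not in the labels. Each morph and mark had 1 deposited list, named in the labels of all its libraries. There was no spread between replicates to set a difference against, and no test between morphs or between classes of regions was made. List lengths ran from 56323 to 136219 peaks for H3K4me3, from 70089 to 117125 for H3K27ac and from 97948 to 99370 for H3K27me3, and the read depth behind them is unknown. Tinaja had the longest list of each mark. The library numbers in the labels of both active marks were 1889 and 1934 in Pachon, 1934 and 2005 in Tinaja and 1930 in Surface, so library number and cave against Surface cannot be told apart. For H3K27me3 it was 2399 in every morph.

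H3K27ac and H3K27me3 divided the all-morph regions unevenly. H3K27ac was present in all morphs at 20519 of them, and 80.6% (80.0 to 81.1) of these were free of H3K27me3 and thus active promoter-like. Over all 35695 all-morph regions, 21609, or 60.5%, were free of H3K27me3. H3K27me3 in all morphs was found at 2406, or 11.7% (11.3 to 12.2), of the regions with H3K27ac in all morphs. Of the 7437 all-morph regions with H3K27ac in no morph, 3867, or 52.0% (50.9 to 53.1), had H3K27me3 in all morphs and 2192 had H3K27me3 in none. With H3K27ac in 1 morph, 2836 regions had H3K27me3 in all morphs, and with H3K27ac in 2 morphs, 1046 had it. These counts use the same peak presence as the rule and are a description. Few regions qualified, or failed to, by an overlap of a few bases. In 3 of the 16536 regions the morph with the least H3K27ac had under 50 bp of it, the median of that least overlap being 665 bp. H3K27me3 came within 100 bp of 22 of them, and only 1 region with H3K27ac in all morphs was kept out by under 50 bp of H3K27me3.

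Some regions missed the rule by a single list. H3K4me3 was missing only from the Pachon list at 1868 regions, only from the Tinaja list at 345 and only from the Surface list at 2076. H3K27ac was missing only from Pachon at 338, only from Tinaja at 181 and only from Surface at 712. A lone H3K27me3 peak kept out 353 regions in Pachon, 143 in Tinaja and 427 in Surface. For both active marks the fewest regions were lost to the Tinaja list, the longest, and the most to the Surface list, the shortest. Lone H3K27me3 peaks were also fewest in Tinaja, whose H3K27me3 list was the longest, and most in Surface, whose list was the shortest. The same counts over all merged regions, whatever their other marks, are not given here. The pattern therefore cannot be called particular to active promoter-like regions. The missing mark was seldom just outside: a peak of it lay within 100 bp of 11, 6 and 5 of the H3K4me3 cases and of 5, 4 and 8 of the H3K27ac cases, for Pachon, Tinaja and Surface.

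The regions were compact. Their merged width had a median of 807 bp (801 to 814), ran from 611 bp at the lower quartile to 1086 bp at the upper, and ranged from 270 to 5742 bp. Summed H3K4me3 width had a median of 687 bp in Pachon, 773 bp in Tinaja and 646 bp in Surface. The other 19159 all-morph regions had medians of 654, 762 and 570 bp in the same morphs. Active promoter-like regions thus had the larger median of summed width in each morph, most of all in Surface. Their median merged width was smaller than the 837 bp of the others. The others are a mixed pool. Medians were 753, 831.5 and 650 bp with all 3 marks in all morphs. Those of Pachon and Tinaja lay above the medians of active promoter-like regions. For Surface the intervals overlapped, at 634 to 667 bp with all 3 marks and 640 to 652 bp in active promoter-like regions. Medians were 808, 864 and 628 bp with H3K27me3 in all morphs and H3K27ac in none, and 464.5, 567 and 478 bp with neither. The other regions as a whole reached further at the wide end. The 95th percentile of summed H3K4me3 width was 1592 bp in Pachon, 1724 bp in Tinaja and 1532 bp in Surface in active promoter-like regions. In the other regions it was 2491, 2595 and 1812 bp. H3K27ac peaks meeting an active promoter-like region summed to medians of 799 bp in Pachon, 873 bp in Tinaja and 791 bp in Surface.

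**Figure D1:**
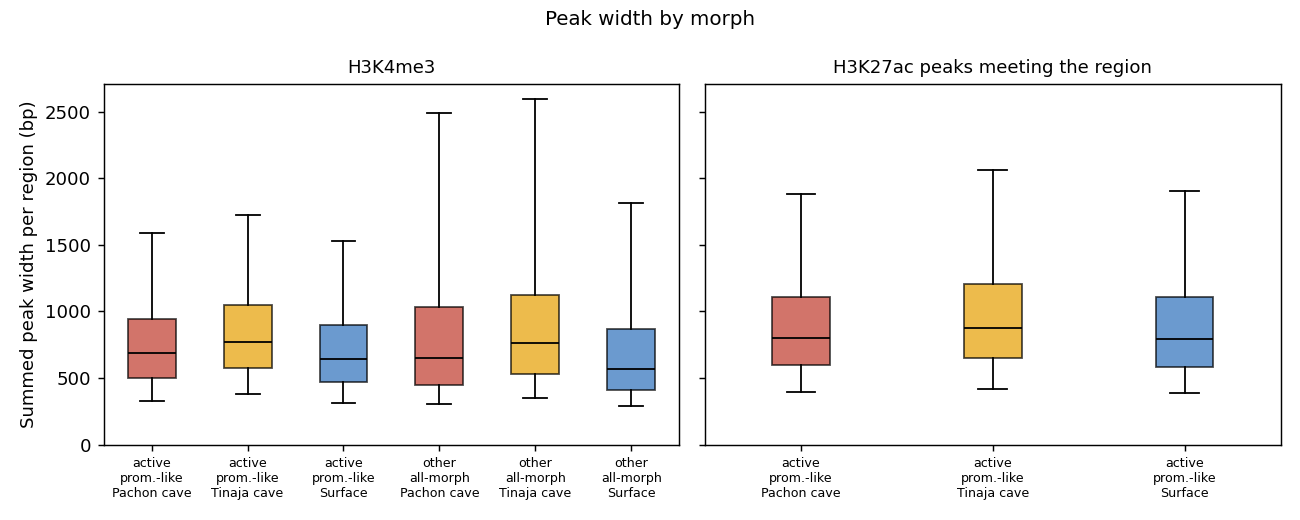
Summed peak width per region in bp, with the box at the quartiles, the line at the median and whiskers at the 5th and 95th percentiles over regions. Left, H3K4me3 in the 16536 active promoter-like regions and in the other 19159 all-morph regions, and right, H3K27ac peaks meeting the active promoter-like regions. Medians in active promoter-like regions are 687, 773 and 646 bp for H3K4me3 in Pachon, Tinaja and Surface, and the other regions reach further at the wide end.

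The share of all-morph regions that were active promoter-like depended on width. It was 44.3% among the 1115 regions under 400 bp and 51.3% (50.1 to 52.6) among those of 800 to 1000 bp. It was 24.6% (22.6 to 26.7) among those of 2000 to 3000 bp. Only 15 of the 290 regions of 4 kb or more qualified, or 5.17% (2.92 to 8.39). Both parts of the rule moved with width. H3K27me3 was absent from all morphs in 77.2% of the narrowest regions and in 5.17% of the widest. H3K27ac was present in all morphs in 50.0% of regions under 400 bp, in 64.1% of those of 800 to 1000 bp and in 18.6% of those of 4 kb or more. The other 275 of the widest regions all met H3K27me3 in at least 1 morph. A wider region has more bases in which any peak can fall, and its part in these shares was not tested.

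**Figure D2:**
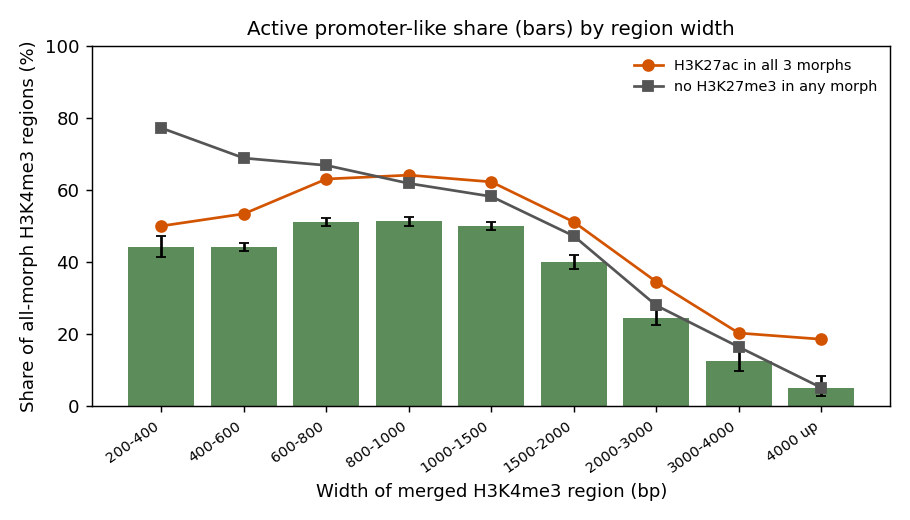
Share of all-morph H3K4me3 regions in percent (vertical) by merged width in bp (horizontal). Bars are active promoter-like regions with exact 95% binomial intervals, and lines are the 2 conditions of the rule. The bars stand at 51.3% for 800 to 1000 bp and at 5.17% for 4 kb or more, and the share without H3K27me3 runs from 77.2% to 5.17%.

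The 6 widest regions on placed chromosomes carried both active marks along most of their length in every morph. The widest, on chromosome 14 from 38795538 to 38800872, spanned 5335 bp, or 9271 bp when H3K4me3 peaks up to 1 kb apart were joined. Its H3K4me3 summed to 3840 bp in Pachon in 4 peaks, 5314 bp in Tinaja in 1 peak and 3340 bp in Surface in 4 peaks, while H3K27ac covered 5335, 5326 and 5331 bp of it. The H3K27ac was thus unbroken or nearly so where the H3K4me3 calls of Pachon and Surface were in pieces, and the nearest H3K27me3 peak of any morph was 17376 bp away. On chromosome 16, from 35960121 to 35965074 (9099 bp wide after joining), H3K4me3 summed to 4594 bp in Pachon, 4954 bp in Tinaja and 4611 bp in Surface. On chromosome 7, from 25426600 to 25431192, it summed to 4554, 4593 and 4469 bp, and 97.1% of the region lay in H3K4me3 peaks of all 3 morphs. This was the closest match of H3K4me3 among the 6. On chromosome 9, from 20596027 to 20600734, H3K4me3 summed to 4184, 4689 and 3888 bp, and H3K27ac covered 3842, 3694 and 3772 bp, so that a stretch of H3K4me3 lacked H3K27ac in every morph. A region on chromosome 16, from 2614692 to 2619059, had 3996, 3796 and 4056 bp of H3K4me3, and 1 on chromosome 3, from 69363227 to 69367469, had 3775, 4119 and 4003 bp. Surface had the most H3K4me3 in the first of these and Tinaja in the second. H3K27ac peaks meeting the chromosome 3 region summed to 4325 bp in Pachon, 4310 bp in Tinaja and 6568 bp in Surface, which reached further out.

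The 2 regions nearest the median width differed in extent between morphs. Joining peaks up to 1 kb apart widened them to 1717 and 1845 bp. On chromosome 1, from 2433796 to 2434602, H3K4me3 summed to 721 bp in Pachon, 807 bp in Tinaja and 401 bp in Surface. Such a difference was uncommon among active promoter-like regions: H3K4me3 was wider 1.5-fold or more in both caves at 3.62% of them. The share was 10.6% over all all-morph regions and 16.7% in those that were not active promoter-like. H3K27ac covered 462, 470 and 466 bp of that region in the same morphs, but its peaks reached beyond the region and summed to 652 bp in Pachon, 1401 bp in Tinaja and 632 bp in Surface. On chromosome 3, from 8977863 to 8978669, H3K4me3 summed to 592 bp in Pachon, 627 bp in Tinaja and 788 bp in Surface, and H3K27ac, all of it within the region, summed to 691, 664 and 654 bp. Surface was thus the narrowest for H3K4me3 in the first and the widest in the second.

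Within a morph, the marks of an active promoter-like region were single blocks that nearly coincided. A single H3K4me3 peak made up 96.3% of regions in Pachon, 98.5% in Tinaja and 95.6% in Surface. A single H3K27ac peak met 96.1%, 96.8% and 95.9% of them. Single peaks were not particular to these regions. In the 2406 all-morph regions with H3K27ac and H3K27me3 in every morph, a single H3K4me3 peak made up 96.0%, 96.6% and 93.4%. A single H3K27ac peak met 94.7%, 93.8% and 95.4% of those. In the 2192 with neither mark in any morph, a single H3K4me3 peak made up 96.7%, 96.0% and 96.7%. In active promoter-like regions, H3K27ac covered on average 88.7% of the region in Pachon, 91.6% in Tinaja and 87.6% in Surface. It lay over the centre in 97.4%, 97.9% and 97.2%. A region is by definition an unbroken stretch of merged H3K4me3 peaks. Peaks split by a gap in every morph would count as separate regions. Whether the marks leave a gap at the centre of a promoter therefore cannot be read from these shares. The centres of the marks lay a median of 37.5 bp apart in Pachon, 43.5 bp in Tinaja and 39.5 bp in Surface.

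H3K27ac reached past the H3K4me3 of the same morph on both sides in 47.2% (46.5 to 48.0) of regions in Pachon, 39.4% (38.7 to 40.2) in Tinaja and 54.0% (53.2 to 54.7) in Surface. It reached past neither edge in 12.4%, 16.4% and 9.77%. As listed, Surface H3K4me3 had the smallest median width at these regions, and its H3K27ac reached past it most often. In the 2406 all-morph regions with H3K27ac and H3K27me3 in every morph, the shares past both sides were 36.3%, 21.9% and 33.8%. Surface was not the highest there, although its median H3K4me3 width of 650 bp was again the smallest. Against the edges of the merged region, set by the morph that reached furthest, H3K27ac passed both edges in every morph at 12.4% (11.9 to 13.0) of regions. In the 2406 all-morph regions that carried H3K27ac and H3K27me3 in every morph, this share was 3.16% (2.50 to 3.94), and H3K27ac covered 83.7% of the region in Pachon, 86.8% in Tinaja and 73.7% in Surface. With the wider 50% of each list, the share in active promoter-like regions was 7.24%.

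Around the regions, coverage by both active marks fell off steeply and then rose slightly. At 500 bp from the centre, H3K4me3 was present at 24.3% of regions in Pachon, 31.2% in Tinaja and 21.9% in Surface, as the mean of both sides. It dipped at 950 bp, to 10.2%, 13.1% and 9.63%. A low second rise followed, to 11.4% at 1700 bp in Pachon, 15.1% at 1550 bp in Tinaja and 11.03% at 1750 bp in Surface. H3K27ac gave a like rise, to 17.7% at 1700 bp in Pachon, 19.5% at 1550 bp in Tinaja and 17.2% at 1650 bp in Surface. The rise was seen in all 6 lists of the active marks, and all lay on 1 set of regions. Merging lets no H3K4me3 peak of any morph touch a region from outside, so a dip in H3K4me3 past the edges is partly built in. The part of this in the dip and rise was not tested. In the 2192 all-morph regions without H3K27ac and H3K27me3, H3K4me3 rose from 13.3% at 1000 bp to 14.6% at 1500 bp in Tinaja. There it went from 9.01% to 8.83% in Pachon and from 8.37% to 8.58% in Surface. At 5000 bp H3K4me3 stood at 6.40%, 10.1% and 6.10%, and H3K27ac at 11.5%, 13.1% and 10.6%, in the same morphs. Both marks had by then passed below the dip. In the 2192 all-morph regions without H3K27ac and H3K27me3, H3K4me3 stood at 6.80%, 11.9% and 6.16% at that distance, as high as around active promoter-like regions or higher, and H3K27ac at 4.68%, 6.82% and 4.33%, which was lower.

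**Figure D3:**
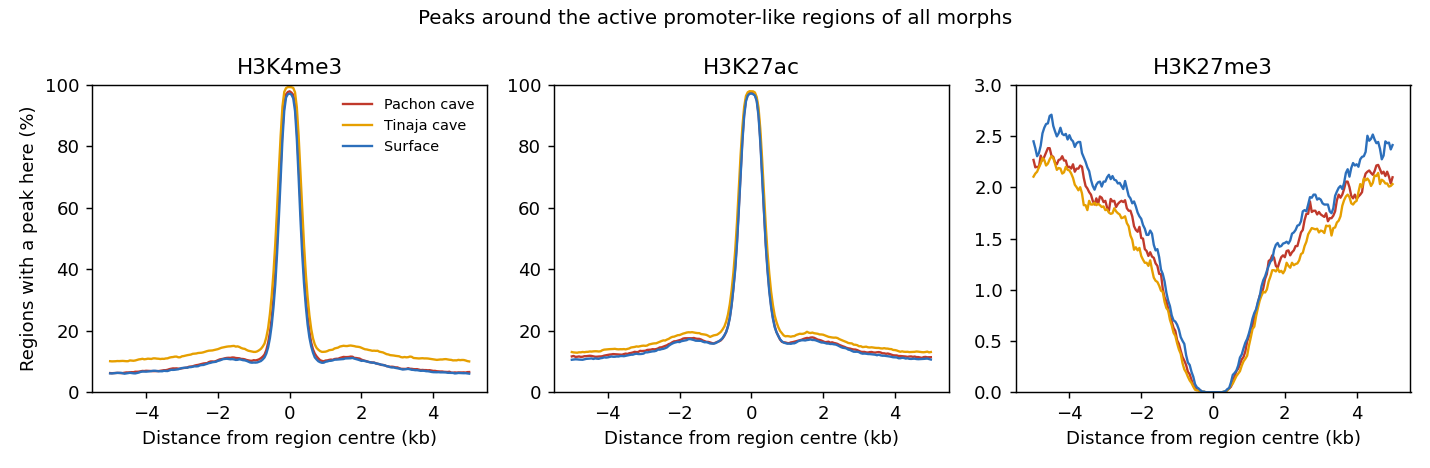
Share of the 16536 active promoter-like regions with a peak (vertical, percent) at each distance from the region centre (horizontal, kb), for H3K4me3, H3K27ac and H3K27me3, 1 line per morph. The H3K27me3 axis ends at 3%. H3K4me3 falls to 10.2%, 13.1% and 9.63% at 950 bp in Pachon, Tinaja and Surface and rises again to 11.4%, 15.1% and 11.03%, while H3K27me3 is absent from the regions by the rule and stays under 3% throughout.

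H3K27me3 lay at a distance. The nearest H3K27me3 peak of any morph was a median of 8174 bp away (8015 to 8353), and 5.05% of regions had one within 1 kb. By morph the median was 11855 bp for Pachon, 12319 bp for Tinaja and 10370 bp for Surface. The all-morph regions without H3K27ac and H3K27me3, chosen by the same absence of H3K27me3, had a median of 8994 bp (8657 to 9475) to the nearest peak of any morph, with 7.75% within 1 kb. Their medians by morph were 13892 bp for Pachon, 14572 bp for Tinaja and 11772 bp for Surface. H3K27me3 thus lay somewhat nearer to active promoter-like regions at the median in every list, while fewer of them had it within 1 kb. With the wider 50% of each list, which also thins H3K27me3, the median was 13252.5 bp.

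The edges of H3K4me3 were placed nearly alike in the 3 morphs. Left edges in Pachon and Surface lay a median of 34 bp apart, and in 90% of regions they lay within 114 bp. For Tinaja and Surface the median was 56 bp and the 90th percentile 166 bp, and for Pachon and Tinaja they were 42 and 135 bp. Right edges gave medians of 34, 56 and 42 bp. Edge distances were not measured in other all-morph regions, so close edges cannot be called particular to active promoter-like regions. The shift was the same on both sides: as listed, Pachon reached a median of 16 bp further out than Surface at each edge, and Tinaja 48 bp further. Across regions the H3K4me3 widths of 2 morphs had Spearman's rho of 0.89 for Pachon with Surface, 0.87 for Tinaja with Surface and 0.90 for Pachon with Tinaja (n = 16536 regions). In the other 19159 all-morph regions rho was 0.69, 0.69 and 0.81. The others include regions where the morphs disagree on H3K27ac or H3K27me3. Pachon and Tinaja, the pair with the highest rho, share library number 1934, and the part of this was not tested. All regions of a morph come from the same libraries, and regions share their sequence content across morphs, so these are descriptions and not tests.

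A difference in H3K4me3 width of 1.5-fold or more was uncommon in active promoter-like regions and common in the other all-morph regions. Between Pachon and Surface, 1238 of 16536 regions, or 7.49% (7.09 to 7.90), differed, against 17.8% of all 35695 all-morph regions and 26.8% (26.1 to 27.4) of those that were not active promoter-like. Between Tinaja and Surface 2208, or 13.4% (12.8 to 13.9), differed, against 23.5% of all-morph regions and 32.2% (31.6 to 32.9) of the others. Between Pachon and Tinaja 8.68% differed, against 14.1% of all-morph regions and 18.7% of the others. In 81.3% of active promoter-like regions the widest of the 3 morphs was under 1.5 times the narrowest, compared with 55.5% of the others. The rule requires the morphs to agree on H3K27ac and H3K27me3, and the others include regions where they do not. The sets thus differ in agreement between morphs by construction, and the part of this in the shares was not tested. Classes in which the morphs also agree on both marks are given below. No test of these shares was made, as the lists have no replicates.

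Between the caves and Surface, the gap between the 2 sets was larger at 2000 to 3000 bp than in narrower regions. Under 400 bp, where few widths can differ by 1.5-fold, 2.43% of active promoter-like and 4.67% of other regions differed between Pachon and Surface. At 1000 to 1500 bp the shares were 7.92% and 33.4%, and at 2000 to 3000 bp they were 4.46% and 50.2%. For Tinaja and Surface they were 14.4% and 38.7% at 1000 to 1500 bp and 7.75% and 54.6% at 2000 to 3000 bp. The gap was smaller again at 4 kb or more, where 0% and 6.67% of the 15 active promoter-like regions, a bin of few regions, and 32.4% and 34.2% of the other 275 differed for Pachon and for Tinaja over Surface. Between Pachon and Tinaja the gap was instead larger at 1000 to 1500 bp, where 9.26% of active promoter-like and 24.9% of other regions differed. The shares were 8.45% and 12.7% at 2000 to 3000 bp and 4.84% and 7.67% at 3000 to 4000 bp.

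**Figure D4:**
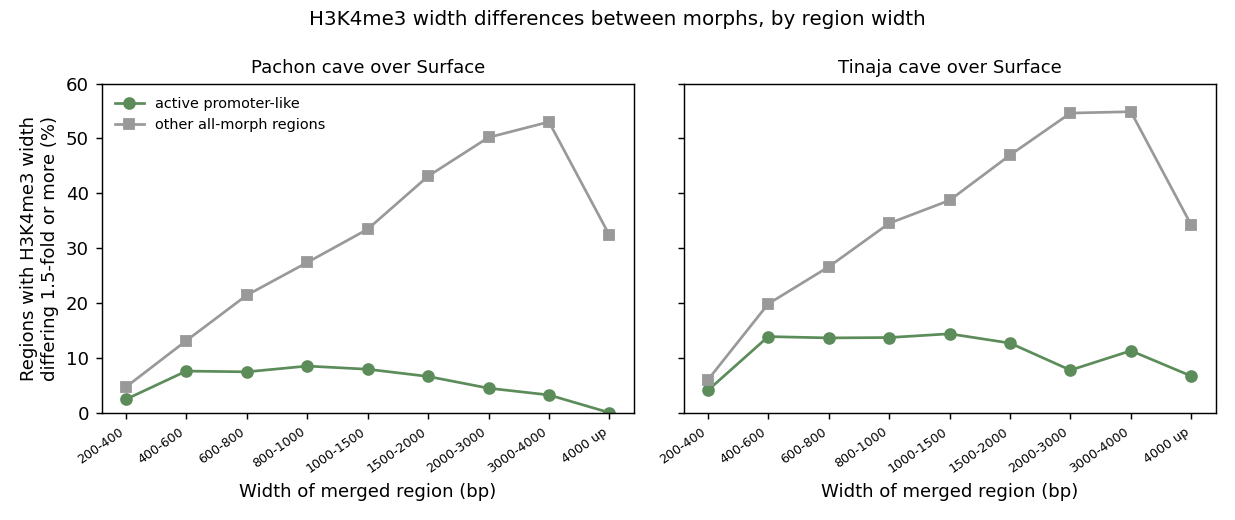
Share of regions in percent whose summed H3K4me3 width differed 1.5-fold or more in either direction (vertical) by merged width in bp (horizontal), Pachon over Surface on the left and Tinaja over Surface on the right. Active promoter-like regions stay between 0% and 14.4% in every bin, and other all-morph regions reach 53.0% and 54.9% at 3000 to 4000 bp.

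The share differing was higher in each of 5 other classes of all-morph regions for Pachon over Surface. It was 12.6% (10.96 to 14.3) where H3K27ac was present in all morphs and H3K27me3 in 1 or 2, and 15.6% (14.3 to 17.0) where H3K27ac was present in 1 or 2 and H3K27me3 in none. It was 15.0% (13.6 to 16.5) where H3K27ac and H3K27me3 were both present in all morphs, 23.7% (22.0 to 25.6) where neither was present in any morph, and 35.9% (34.4 to 37.4) where H3K27me3 was present in all and H3K27ac in none. For Tinaja over Surface the shares of these 5 classes were 18.01%, 23.5%, 21.9%, 24.5% and 39.7%, all above that of active promoter-like regions. The 5 classes leave out part of the other regions, such as the 2836 with H3K27ac in 1 morph and H3K27me3 in all. Active promoter-like regions were not the lowest for Pachon over Tinaja, where 7.32% (6.31 to 8.43) of the regions with all marks in all morphs differed. When H3K4me3 peaks up to 1 kb apart were joined, the shares in active promoter-like regions were 12.4% for Pachon and 21.01% for Tinaja over Surface, with 33.3% and 43.6% in the others. With the wider 50% of each list they were 4.54% and 8.26%, with 22.2% and 27.3% in the others. Active promoter-like regions had the lower share in all 16 combinations of alternative setting and cave morph.

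The balance of wider and narrower regions depended on scaling, although for Tinaja wider stayed the more frequent direction. Over all 35695 all-morph regions the median width fold was 1.06 for Pachon over Surface and 1.18 for Tinaja over Surface, a shift of 0.09 and 0.24 on the log2 scale. In active promoter-like regions the medians were 1.05 and 1.15 as listed, and 0.99 and 0.97 relative to all-morph regions. As listed, H3K4me3 was wider in Pachon at 4.66% of regions (12.9% of all-morph regions) and narrower at 2.82% (4.9%). Relative to the median fold, the shares were 3.40% wider (10.6%) and 3.76% narrower (6.25%), so neither direction prevailed for Pachon. Tinaja was wider at 12.1% (20.9%) and narrower at 1.22% (2.61%) as listed, and wider at 5.47% (12.2%) and narrower at 2.84% (4.92%) relative to the median fold. Both directions together then came to 8.30% for Tinaja. All of these shares lay under those of all-morph regions.

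H3K27ac was wider in the caves than in Surface less often here than in other regions with H3K27ac in every morph. It was not narrower less often. H3K27ac peaks meeting the region differed 1.5-fold or more between Pachon and Surface at 8.53% (8.11 to 8.96) of regions, against 10.3% of the 20519 all-morph regions with H3K27ac in every morph and 17.7% (16.6 to 18.9) of the 3983 of these that were not active promoter-like. Between Tinaja and Surface 12.9% (12.4 to 13.4) differed, against 14.4% and 20.4% (19.1 to 21.7). Between Pachon and Tinaja 10.2% differed, against 10.3% and 10.8%. Active promoter-like regions make up 80.6% of the 20519, so the shares over all of them lie close to their own. All of the 3983 carried H3K27me3 in some morph, and at 1577 of them the morphs disagreed on it. The rule keeps such regions out, so the sets differ by construction, and the part of this in the shares was not tested. The lower shares lay in the wider direction only. H3K27ac was wider in Pachon than in Surface at 4.14% of regions, against 13.8% of the 3983, and narrower at 4.38%, against 3.94%. For Tinaja it was wider at 9.26%, against 17.3%, and narrower at 3.65%, against 3.06%. The median folds over Surface were 1.01 for Pachon and 1.07 for Tinaja, and 1.09 and 1.14 in the 3983. Both marks tended to go the same way, though not closely. Over all 16536 regions their width folds had Spearman's rho of 0.30 for Pachon over Surface and 0.42 for Tinaja over Surface. For Pachon over Tinaja rho was 0.32. Where H3K4me3 was wider in Pachon than in Surface (771 regions), H3K27ac was wider, by any amount, in 73.7%, against 33.2% where H3K4me3 was narrower (467 regions) and 54.1% where it was neither. For Tinaja over Surface the shares were 83.4%, 23.3% and 68.2%. Where H3K4me3 was wider, H3K27ac was wider 1.5-fold or more in 15.6% for Pachon and 24.8% for Tinaja over Surface. The relation was not counted in other regions. H3K4me3 and H3K27ac lists of a morph share library numbers, and the part of this in the relation was not tested.

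Both caves had the wider H3K4me3 at 598 regions, or 3.62% (3.34 to 3.91), against 10.6% of all-morph regions, and the narrower at 89, or 0.538%, against 0.818%. The 2 comparisons share the Surface list. Pachon was wider and Tinaja narrower than Surface at 2 regions, against 0.148% of all-morph regions, and Pachon narrower and Tinaja wider at 27, against 0.3%. Relative to the median folds the shares were 2.16%, against 7.7%, and 1.00%, against 1.6%. The largest differences were taken from regions on placed chromosomes with at least 500 bp of H3K4me3 in every morph, by the smaller of the 2 folds, and are a description. On chromosome 20, from 1770515 to 1772410, H3K4me3 summed to 1820 bp in Pachon, 1591 bp in Tinaja and 545 bp in Surface, or 3.34-fold and 2.92-fold. H3K27ac hardly differed there, at 2478 bp in Pachon, 2610 bp in Tinaja and 2306 bp in Surface. On chromosome 24, from 38357047 to 38358742, H3K4me3 summed to 1667, 1453 and 515 bp and the H3K27ac peaks to 1750, 1753 and 753 bp. On chromosome 10, from 12324360 to 12325939, H3K4me3 summed to 1575, 1504 and 575 bp and H3K27ac to 1638, 1693 and 488 bp. In the last 2 regions both marks were short in Surface.

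H3K4me3 was narrowest in the caves relative to Surface on chromosome 22, from 19368659 to 19370212, with 703 bp in Pachon, 512 bp in Tinaja and 1554 bp in Surface. H3K27ac summed to 1534 bp in Pachon, 1166 bp in Tinaja and 1733 bp in Surface, a smaller difference than that of H3K4me3. On chromosome 5, from 14418288 to 14419306, H3K4me3 summed to 524, 539 and 1019 bp and H3K27ac to 563, 480 and 787 bp. Both marks were longest in Surface. On chromosome 2, from 32880906 to 32881987, H3K4me3 summed to 588, 582 and 1082 bp, while H3K27ac summed to 419 bp in Pachon, 1056 bp in Tinaja and 802 bp in Surface. The caves differed from each other in H3K27ac there.

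The side to which H3K27ac was shifted from H3K4me3 was mostly shared by the morphs. The rule does not use this measure. It was not counted in other regions with H3K27ac in all morphs, so it cannot be called particular to active promoter-like regions. Centres were taken from the outer ends of peaks, so a peak bridging to a neighbour in every morph gives the same side. The part of such peaks was not tested. In 58.8% (58.0 to 59.5) of all regions the centre of H3K27ac lay on the same side of the centre of H3K4me3 in all 3 morphs. Where the shift was 100 bp or more in each morph, it was on the same side in 1582 of 1720 regions, or 92.0% (90.6 to 93.2). When regions were ordered by the shift in Surface alone, both caves lay on the side of Surface in 41.0% of regions with a shift under 25 bp, 71.3% with 50 to 100 bp and 79.6% (76.1 to 82.8) with 400 bp or more. The strand of transcription is not known here, so the side cannot be called upstream or downstream.

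**Figure D5:**
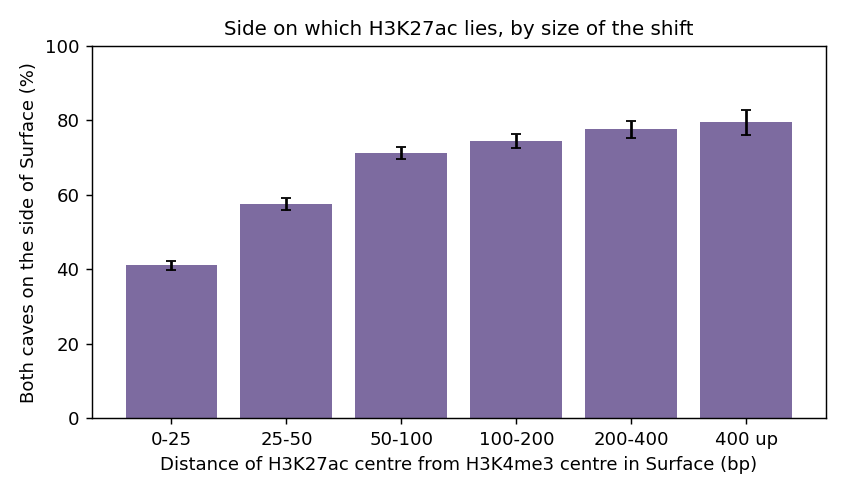
Share of active promoter-like regions in percent in which H3K27ac is shifted to the same side of H3K4me3 in both caves as in Surface (vertical), by size of the shift in Surface in bp (horizontal), with exact 95% binomial intervals. The share runs from 41.0% under 25 bp to 79.6% at 400 bp or more.

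Most active promoter-like regions stood alone at a distance of 1 kb, and a minority had a close neighbour. The nearest other such region was a median of 5382 bp away, and 22.3% had one within 1 kb. The other all-morph regions lay a median of 12618 bp from each other, with 15.5% within 1 kb, although they outnumbered the active promoter-like ones. With regions at most 1 kb apart taken as a chain, 12842 stood alone, 1502 chains had 2 regions and 169 had 3, and the longest, of which there were 2, held 7. The gap between neighbours in a chain had a median of 476.5 bp. It held some H3K27ac at 55.5% of 1982 gaps in Pachon, 65.8% in Tinaja and 55.2% in Surface, and was filled by it at 7.62%, 12.3% and 8.27%. H3K27me3 was present in 0 gaps in Pachon, 1 in Tinaja and 2 in Surface. The rule lets no H3K27me3 peak meet either region of a gap. The median H3K27me3 peak was 411, 415 and 410 bp wide in the same morphs and barely fits in the median gap. The rule thus leaves little room for H3K27me3 there, and its near absence is no finding. With the wider 50% of each list, 13.4% of regions had another within 1 kb.

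Along the genome the regions were spread over every placed chromosome. The 25 placed chromosomes held 12306 of them, or 13.2 per Mb up to the last peak, and 4230 lay on 739 unplaced scaffolds. Density ran from 8.73 per Mb on chromosome 21 to 17.6 per Mb on chromosome 11, which was also the shortest by its last peak. All-morph regions as a whole were likewise sparsest on chromosome 21, with 425 in 21.7 Mb. They were densest on chromosome 11, with 374 in 11.6 Mb. The active promoter-like share of all-morph regions ran from 42.6% on chromosome 12 to 56.2% on chromosome 4. It was 49.2% (48.5 to 49.8) on placed chromosomes and 39.7% (38.7 to 40.6) on unplaced scaffolds.

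The regions were dense in a few stretches and absent from many. Of 9318 windows of 100 kb on placed chromosomes, 4883 held none and 140 held 8 or more. These 140 windows held 10.3% of the placed regions. The spread of all-morph regions as a whole over the windows is not given here, so this pattern cannot be called particular to active promoter-like regions. The densest, on chromosome 6 from 12900001 to 13000000, held 15, with 1 other all-morph region. Windows on chromosome 19 from 4800001 to 4900000 and on chromosome 20 from 1600001 to 1700000 held 13 each, with 0 and 1 other all-morph regions. A window on chromosome 1 from 9000001 to 9100000 held 12 and no other all-morph region, as the first of 10 windows with 12 in chromosome order. H3K27me3 peaks were present in some of these windows and nearly absent from others. The window on chromosome 19 held 10 H3K27me3 peaks in each morph, and that on chromosome 6 held 6 in Pachon, 7 in Tinaja and 6 in Surface. That on chromosome 20 held 1, 0 and 0, and that on chromosome 1 held 1, 1 and 0.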

How the data were processed

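Positions of peaks (start and end) were used from 9 lists, 1 per morph and mark, that the authors deposited; the deposited score is 0 throughout and no height or significance is given. MACS2, Bowtie2, SAMtools and bcl2fastq 2.20 are listed in the submitters' processing notes. The sources used here give no settings, no genome build and no account of how libraries were pooled. On chromosome 1 the last peak ends at 27.0 Mb and the last gene of the table at hand (assembly AstMex3_surface) at 134 Mb, so its coordinates were not used. Positions in the text count from 1 on the lists' own chromosomes.

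Overlap meant 1 bp or more. Peaks within a list neither overlapped nor touched. Summed width is the number of bp in peaks of a morph within a merged region, and for H3K27ac the full width of the peaks that meet it. Intervals are exact binomial or, for medians, from order statistics, at 95%. The minimum sizes, the 1.5-fold threshold, the rule for named regions (the 6 widest, the 3 largest width differences in each direction, the 4 densest windows, the 2 nearest the median width) and the regions themselves were chosen with earlier results of these data known. Other settings tried were lists cut to their wider 50%, lists of equal length, overlap of 50% of the shorter interval, joining of H3K4me3 peaks up to 1 kb apart, placed chromosomes, no H3K27me3 within 1 kb and a 2-fold threshold; scaling by the median fold was chosen after seeing the data. Overlaps and distances were checked on simulated intervals by counting single bases, with 0 mismatches in 30720 values. Scripts ran in Python 3.11.15, with figures from Matplotlib 3.10.9 and arithmetic from NumPy 2.4.6 and SciPy 1.17.1.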

Additional observations from a re-analysis of the deposited data

How the results depend on the processing

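No paired analysis was possible because each morph and mark has 1 list of pooled libraries, and no replicate could be left out for the same reason. The 16536 regions became 10567 with the wider 50% of each list, where 61.9% of them still met a qualifying region, and between 12306 and 16519 under the other 5 settings. With the wider 50%, the share of all-morph regions was 52.8%, the median width 969 bp, the median distance to H3K27me3 13252.5 bp, the share with H3K27ac past both edges in all morphs 7.24%, the shares with a width fold 4.54% for Pachon and 8.26% for Tinaja over Surface, and the share within 1 kb of another 13.4%. With lists of equal length, the share of all-morph regions was 47.1%, the median width 876 bp, H3K27ac past both edges 9.35%, the Pachon width fold share 6.36% and the share within 1 kb 18.1%. With peaks up to 1 kb apart joined, they were 44.3%, 1068 bp, 12.4% and 21.01% for the width folds, and 0% within 1 kb, since joining removes such neighbours. On placed chromosomes the share of all-morph regions was 49.2%, the median width 817 bp, the distance 8433.5 bp, H3K27ac past both edges 13.2% and the share within 1 kb 23.4%. Without H3K27me3 within 1 kb, the share of all-morph regions was 44.0% and the distance 8726 bp. A 2-fold threshold gave width fold shares of 2.00% and 3.37%, and scaling by the median fold 8.30% for Tinaja. Overlap of 50% of the shorter interval moved none of the 8 values beyond its interval. A 2-fold threshold can only lower the width fold shares. Leaving out regions with H3K27me3 within 1 kb can only lower the share of all-morph regions and raise the distance. Apart from these shifts and the effect of joining on neighbours, the cause of the shifts was not tested. All 14 named regions still met a qualifying region under each setting except the wider 50%, where 11 did. Joining moved the merged width of 4 of them by over 1.5 times: on chromosome 14 to 9271 bp, on chromosome 16 from 35960121 to 9099 bp, and in the regions of median width to 1717 bp on chromosome 1 and 1845 bp on chromosome 3. The unknown depth limits absence: a missing peak is absence from a list.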

Other observations

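The side of the H3K27ac shift was also counted in active promoter-like regions beside a neighbour. Among regions with another within 1 kb on 1 side only and an H3K27ac shift of 100 bp or more, H3K27ac leaned towards the neighbour in 462 of 820 in Pachon, or 56.3% (52.9 to 59.8), in 655 of 1119 in Tinaja, or 58.5% (55.6 to 61.4), and in 543 of 934 in Surface, or 58.1% (54.9 to 61.3). The H3K27ac centre was taken from the outer ends of its peaks, so a peak bridging to the neighbour pulls it that way by construction. H3K27ac filled 151 of the 1982 gaps between neighbours in Pachon, 243 in Tinaja and 164 in Surface. The part of such peaks in these shares was not tested.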
